A study of Mus musculus with 31 samples.

Results

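Interferon added to azacytidine was compared with azacytidine alone in haematopoietic stem cells that carried mutant JAK2 and a deletion of Dnmt3a. The comparison used 7 of the 31 libraries of the study, the 3 labelled VFDM COMBO (numbered 2, 3 and 4) and the 4 labelled VFDM AZA (numbered 1 to 4), taken by their labels alone. The design gives 4 mice per group, and 3 COMBO libraries were analysed here. All 7 libraries came from cells of the genotype SclCre;FF1;Dnmt3Δ/Δ;GFP, in which FF1 is an inducible human JAK2-V617F and SclCre a Cre recombinase under control of the stem cell gene Scl. These marrow cells had been transplanted into wild-type mice with a 10-fold excess of wild-type marrow. From 4 weeks after transplant, AZA mice received 5-azacytidine at 2 mg/kg each day into the peritoneum for 8 weeks. COMBO mice received the same azacytidine and, under the skin, pegylated interferon alpha at 25 µg/kg each week. RNA was taken from bone marrow cells sorted without lineage markers and with Sca1, Kit and CD150 but without CD48, the gate for long-term haematopoietic stem cells. The labels do not say whether GFP was part of the gate, so wild-type competitor cells may be in the libraries, nor whether each library came from a separate animal. The remaining groups were the vehicle (V), IFN, AZA and COMBO groups with Dnmt3a intact (VF) and the V and IFN groups with Dnmt3a deleted. They served as reference. All 31 libraries were also fitted together, so these groups entered the row filter and the spread behind each p-value.

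JAK2-V617F is a constantly active kinase that drives myeloproliferative neoplasms, and loss of DNMT3A often accompanies it. Type I interferon binds the receptor pair IFNAR1 and IFNAR2, the kinases TYK2 and JAK1 phosphorylate STAT proteins, and with IRF9 these bind the interferon-stimulated response element (ISRE) in the promoters of antiviral genes. In the marrow, acute type I interferon is known to push dormant stem cells into cycle for a short time, and they return to quiescence when exposure is prolonged. Azacytidine is a nucleoside that traps and depletes DNA methyltransferases.

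Levels are in CPM, read counts relative to the TMM-scaled library size, and changes are log2 fold changes ± SE of COMBO minus AZA from edgeR, with p-values adjusted over 22172 rows. A gene is said to rise or fall where the adjusted p was under 0.05. Values per library are given in the order of the library numbers. The 7 libraries held 17782394 to 32209318 counts. Between 18843 and 23690 rows were detected in AZA libraries and 18450 to 21262 in COMBO libraries, and AZA 3, AZA 4 and COMBO 3 had fewer than 20000. Fits without libraries under 20000 detected rows therefore keep only AZA 1 and 2 and COMBO 2 and 4 of the 7. Because these are bulk samples, fewer cells of a type and less RNA per cell cannot be told apart. P-values rest on the spread between single libraries, which may be technical.

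Some libraries stood apart from their labels or from each other. The 52 interferon-stimulated genes listed, of which 51 were tested, had a mean log2(CPM + 1) of 6.31 to 6.52 in the AZA libraries, which the labels give no interferon. The same mean was 4.80 to 4.93 in VFDM V, 4.67 to 4.90 in VF AZA and 6.51 to 6.75 in VFDM IFN, and it was 5.99 to 6.44 in COMBO. In 50 of the 51 members tested every AZA library lay above every VFDM V library, and in 44 every one lay above every VF AZA library. The table holds no other measure of the drugs received, and the cause of this level was not tested. Every interferon result below is therefore a difference from azacytidine libraries with a high interferon-stimulated level. COMBO 3 was the highest COMBO library in 289 of the 431 rises (67.1%), with globin, neutrophil and reporter RNA far above the other libraries. COMBO 4 held far more skeletal muscle RNA, with 5043 CPM of the myosin Myh4 against 0 to 4.05 CPM in the other 6. Myh4 was chosen after its values were seen, and the part of skeletal muscle RNA in other results was not tested.

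Dnmt3a, the targeted de novo methyltransferase, was at 51.6, 23.02 and 57.00 CPM in COMBO and 107, 105, 95.1 and 83.4 CPM in AZA. The groups did not overlap, and the difference passed the test (-1.15 ± 0.23, adjusted p = 0.00132). VF AZA held 176 to 223 CPM, and the gene total cannot separate reads of the deleted part from reads of the rest. The transgene rows did not differ past the test. CreERT2 stood at 189, 153 and 179 CPM in COMBO and 220.4, 242, 239.5 and 186 CPM in AZA (adjusted p = 0.326). The JAK2-V617F row of exons 3 to 12 stood at 59.5, 97.9 and 87.9 CPM in COMBO and 100.05, 125, 99.04 and 107 CPM in AZA (adjusted p = 0.386). Levels of the rows of exons 13 to 25 are not reported here. EGFP was at 389, 1031 and 514 against 441, 441, 301 and 359 CPM (adjusted p = 0.103, and 0.0232 without COMBO 2). Mouse Jak2 did not pass (0.19 ± 0.13, adjusted p = 0.406).

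Interferon added to azacytidine was accompanied by lower levels of many stem cell transcripts. Of 51 interferon-stimulated genes 45 did not pass the test, where 7.82% of all rows passed. Hlf and Mecom, transcription factors of long-term stem cells, were 7.20 and 7.55 times lower in COMBO, with Hlf at 35.4 ± 4.203 CPM (mean ± SD, n = 3) against 255 ± 84.5 (n = 4). Genes of red cells and neutrophils were higher. In all, 1733 of 22172 rows (7.82%) passed the test, 431 higher (1.94%) and 1302 lower (5.87%), with 4980 at an unadjusted p under 0.05, and the median change of all rows was -0.05. The count was 1039 without COMBO 3, 757 in a fit of the 7 libraries alone and 2892 with DESeq2. Of the 1733 calls, 668 held in every fit that left out 1 of the 7 libraries, 98 of them rises and 570 falls. Protein-coding genes, 14094 of the 22172 rows, gave 378 of the rises and 1104 of the falls. The counts of calls in each list below are to be set against the 1.94% and 5.87% of all rows.

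**Figure D1:**
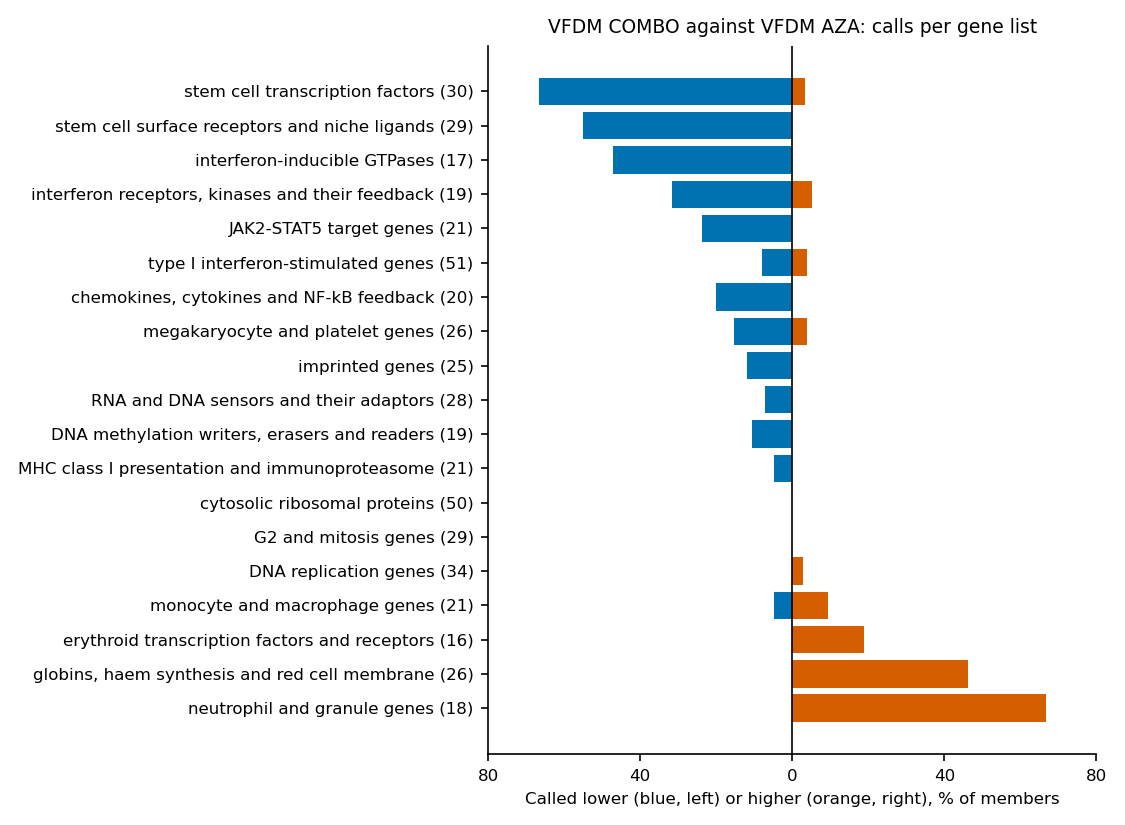
Share of members called lower (bars to the left) or higher (bars to the right) in VFDM COMBO against VFDM AZA, in % of the members tested, whose number stands in brackets. Falls lead in both stem cell lists (20 of 30 and 16 of 29), and rises lead in the globin and haem list (12 of 26) and the neutrophil list (12 of 18).

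Genes of the receptor, its kinases and their feedback were looked at first. The subunit gene Ifnar2 was at 55.7, 23.7 and 37.7 CPM in COMBO and 44.04, 54.6, 40.6 and 55.8 CPM in AZA, overlapping ranges (adjusted p = 0.414), and the receptor kinase Tyk2 did not pass (adjusted p = 0.536). Jak1 was lower (-0.35 ± 0.11, adjusted p = 0.0369), a call that ended whichever of the 7 libraries was left out (adjusted p of 0.0573 to 0.274). Of the 19 genes for receptors, kinases and feedback, 1 rose and 6 fell, beside 1.94% and 5.87% of all rows, with a median of -0.19. The falls with the smallest p were of Cish, a STAT-induced inhibitor of cytokine receptors, and of the transcription factors Irf1 and Irf2. Cish was at 11.7, 10.8 and 5.80 CPM in COMBO against 49.8, 54.6, 34.3 and 20.6 CPM in AZA (-2.08 ± 0.33, adjusted p = 8.1e-05). Irf1 was at 29.3, 12.5 and 28.4 against 67.6, 55, 57.4 and 38.1 CPM (-1.22 ± 0.24, adjusted p = 0.0011), and Irf2 at 70.7, 72.3 and 95.5 against 164, 139, 106 and 115 CPM (-0.72 ± 0.14, adjusted p = 0.00115). In none of the 3 did the groups overlap, but Irf1 and Irf2 did not pass in a fit of the 7 libraries alone (adjusted p = 0.0542 and 0.06). Stat3 fell by 0.69 on the log2 scale (adjusted p = 0.00787), but not without COMBO 2 or COMBO 4 (adjusted p = 0.0617 and 0.0752) or in the 7 libraries alone (adjusted p = 0.0657). Ifngr1, the receptor of interferon gamma, was the 1 rise (0.95 ± 0.29, adjusted p = 0.0343), and it ended without AZA 1, 2 or 4 or COMBO 2 or 3 (adjusted p of 0.0514 to 0.161).

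Among the 51 interferon-stimulated genes there were 2 rises and 4 falls, beside 1.94% and 5.87% of all rows. Their median was -0.12, beside -0.05 for all rows. Irf7, the factor that amplifies interferon production, was at 165, 224 and 115 CPM in COMBO and 135, 154, 115 and 159 CPM in AZA (adjusted p = 0.717). The antiviral synthetase gene Oas2 was at 206, 170.3 and 152 against 199, 215, 222 and 214 CPM (adjusted p = 0.55). Usp18, the protease that removes ISG15 and damps the receptor, was at 89.2, 63.99 and 59.98 against 45.8, 60.3, 49.6 and 65.8 CPM (adjusted p = 0.454), so that in all 3 genes the groups overlapped. VFDM V libraries held 9.85 to 16.8 CPM of Irf7, 22.2 to 27.2 of Oas2 and 6.69 to 11.9 of Usp18. Across the list, 6 members had every COMBO library above every AZA library and 10 had every one below, beside 5.77% and 9.14% of all rows. The list tipped to falls in 2 alternatives, with 0 rises and 7 falls without libraries under 20000 detected rows and 3 rises and 8 falls with limma voom. Mx1, Ifi44 and Oasl2 were called lower in both, with adjusted p = 0.0296, 0.00662 and 0.0139 without those libraries, and Oasl2 also without COMBO 3 (adjusted p = 0.01).

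The members that moved went both ways. Isg15, a ubiquitin-like antiviral protein, was at 34.8, 89.9 and 43.1 CPM in COMBO and 20.6, 28.7, 15.9 and 17.82 CPM in AZA (1.43 ± 0.38, adjusted p = 0.0152). Rsad2, the viperin gene, was at 84.4, 632 and 131 against 70.5, 80, 74.5 and 67.7 CPM (1.95 ± 0.37, adjusted p = 0.000902). COMBO 3 was the highest library in both, and without it neither passed (adjusted p = 0.19 and 0.125). Neither passed without libraries under 20000 detected rows (adjusted p = 0.306 and 0.149), nor Rsad2 in the 7 libraries alone (adjusted p = 0.233). Ifi27, a mitochondrial interferon-induced protein, was lower at 18.5, 14.4 and 14.1 against 72.1, 72.5, 38.7 and 61.9 CPM (-1.97 ± 0.26, adjusted p = 4.24e-06). Slfn5, of the schlafen family, was at 34.2, 80.6 and 48.3 against 122, 139.7, 93.1 and 123 CPM (-1.14 ± 0.26, adjusted p = 0.00451, but 0.0619 without COMBO 2). Ifit3, an inhibitor of viral translation, was at 8.04, 2.65 and 3.07 against 37.2, 42.6, 32.5 and 29.9 CPM (-2.94 ± 0.81, adjusted p = 0.0233, but 0.111 without COMBO 3 and 0.102 without COMBO 4). All 3 lay lower in every COMBO library than in any AZA library. Stat2 fell as well (-0.66 ± 0.19, adjusted p = 0.0229), but not without AZA 2, 3 or 4 or COMBO 3 or 4 (adjusted p of 0.056 to 0.192), nor in the 7 libraries alone or without those under 20000 detected rows (adjusted p = 0.0525 and 0.086). Ifit3 also missed the threshold with no filter on low counts (adjusted p = 0.051).

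Interferon-inducible GTPases, which attack the vacuoles of intracellular pathogens, fell for 8 of 17 members and rose for 0, with a median of -0.85. Irgm2 was at 48.9, 49.5 and 40.8 CPM in COMBO and 104, 113, 164 and 89.5 CPM in AZA (-1.35 ± 0.20, adjusted p = 2.68e-05). Gbp6 was at 16.7, 12.9 and 11.1 against 70.1, 53.4, 78.8 and 51.6 CPM (-2.22 ± 0.47, adjusted p = 0.0023), and Gbp8 at 0.284, 0 and 1.47 against 27.1, 25.1, 19.9 and 22.3 CPM (-5.24 ± 0.91, adjusted p = 0.000304). VFDM V held 52.7 to 69.7 CPM of Irgm2 and 12.9 to 26.98 of Gbp6, so COMBO libraries lay under every vehicle library for Irgm2 and overlapped them for Gbp6. Iigp1 (-1.42 ± 0.24, adjusted p = 0.000179), Gbp4 (-4.16 ± 0.84, adjusted p = 0.00165) and Gbp5 (-1.27 ± 0.28, adjusted p = 0.00314) fell too. With limma voom Gbp6 and Gbp4 did not pass (adjusted p = 0.0612 and 0.208). Igtp passed narrowly (-0.59 ± 0.19, adjusted p = 0.0464) and ended without AZA 1, 2 or 3 or any of the COMBO libraries (adjusted p of 0.0864 to 0.246). Counts of near-identical family members may be split between copies.

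Among the other targets, chemokine and NF-kB feedback genes fell for 4 of 20 members. Il18, an inflammasome cytokine, had no read in any COMBO library (up to 0.169 CPM is possible at the lowest depth) and stood at 5.49, 4.95, 5.99 and 6.70 CPM in AZA (adjusted p = 2.34e-05). Il15, which sustains lymphocytes, was at 4.98, 2.13 and 3.20 against 15.3, 13.7, 12.3 and 20.4 CPM (-2.16 ± 0.55, adjusted p = 0.0109, but 0.0791 and 0.0535 without COMBO 3 or 4 and 0.0908 with limma voom). The death ligand Tnfsf10 (-0.87 ± 0.23, adjusted p = 0.0135) ended without COMBO 2 or 4 (adjusted p = 0.0726 and 0.0991). Of 21 genes of MHC class I presentation 1 fell and 0 rose, with a median of -0.10. It was H2-T22 at 85.7, 87.1 and 77.8 against 126, 128, 122 and 108 CPM (-0.54 ± 0.15, adjusted p = 0.0193), a call that ended without AZA 1 or 2 or without any of the COMBO libraries (adjusted p of 0.0612 to 0.118), in the 7 libraries alone (0.0544) or with no filter (0.0673). H2-K1, a classical class I chain, was at 855, 765 and 666 against 1003, 996, 817 and 853 CPM (adjusted p = 0.266). Among 28 RNA and DNA sensors and adaptors 2 fell and 0 rose, and the RNA helicase Ddx58 was at 174, 159.9 and 130.4 against 183, 225, 217 and 191 CPM (adjusted p = 0.0911).

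The core of the response element that interferon factors bind was looked for in the promoters of these genes. RefSeq promoters (GRCm38.p6, 250 bases before to 50 after the start) were searched for GAAANNGAAA on both strands. It was in 18 of the 39 interferon-stimulated genes with an entry (46.2%), in 9 of 10 GTPase genes (90.0%) and in 1079 of 27025 genes in all (3.99%). Of the 18, 2 rose, 3 fell and 13 did not pass, and of the 9 GTPase genes 4 fell and 5 did not pass, so the motif stood in genes of each kind of outcome. The stretches below lie before the start of a gene that rose (Isg15), 1 that did not pass (Ifit1) and 3 that fell (Slfn5, Irgm2 and Igtp). They run 5′ to 3′ on the gene's strand with the motif in capitals, either as GAAANNGAAA or as its reverse complement TTTCNNTTTC.
Isg15: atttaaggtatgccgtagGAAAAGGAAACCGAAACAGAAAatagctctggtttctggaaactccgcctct
Ifit1: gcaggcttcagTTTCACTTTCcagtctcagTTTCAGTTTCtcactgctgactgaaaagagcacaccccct
Slfn5: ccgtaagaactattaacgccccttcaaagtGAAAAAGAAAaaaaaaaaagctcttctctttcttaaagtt
Irgm2: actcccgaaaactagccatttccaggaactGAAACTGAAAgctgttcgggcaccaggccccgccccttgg
Igtp: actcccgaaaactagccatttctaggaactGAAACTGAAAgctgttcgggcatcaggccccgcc
They lie at chr4:156200845-156200914 (minus strand), chr19:34640774-34640843 (plus strand), chr11:82951917-82951986 (plus strand), chr11:58214883-58214952 (plus strand) and chr11:58199492-58199555 (plus strand). Isg15 held 3 overlapping matches in the window before its start and Ifit1 held 2, and the other 3 held 1 each. A match describes the letters and no binding was measured. Among 22 stem cell transcription factors with an entry the motif stood in 2 (9.09%). Both fell, as did 12 of the 20 without it.

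**Figure D2:**
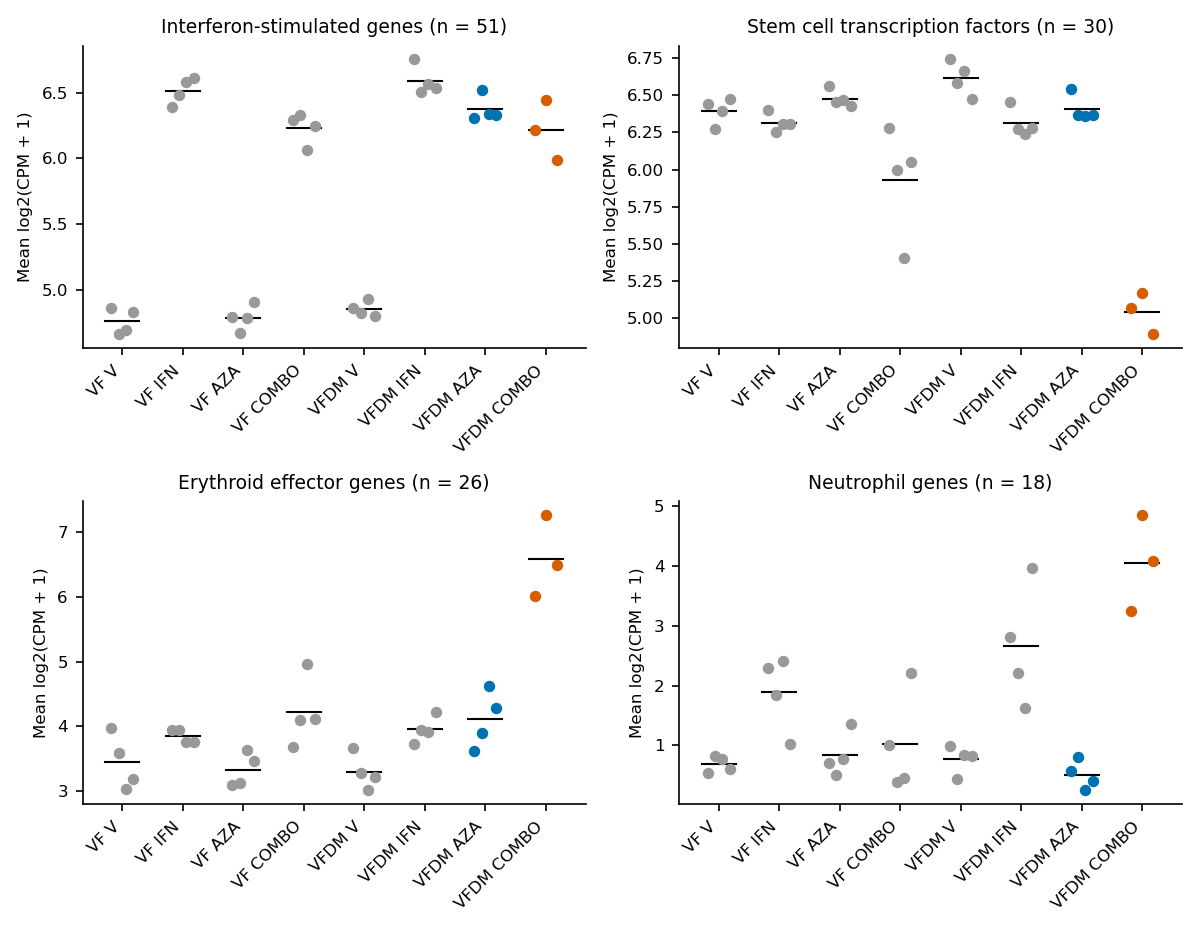
Mean log2(CPM + 1) over the members of 4 lists, 1 point per library and a line at the group mean, for the 8 groups. Each title gives the number tested, and the means take in all 52 interferon-stimulated and all 19 neutrophil genes listed. The blue VFDM AZA points lie with the interferon-treated groups for interferon-stimulated genes, and the orange VFDM COMBO points lie below every other library for stem cell factors (4.89 to 5.17) and above every other library for erythroid effectors.

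Stem cell transcription factors had the most members past the test of any list described: 20 of 30 fell, 1 rose and 9 did not pass, with a median of -1.34. Hlf (ENSMUSG00000003949, chr11:90336536-90390895) was at 33.1, 40.2 and 32.8 CPM in COMBO and 326, 290.2, 133 and 269.9 CPM in AZA. Every COMBO library lay under every AZA library, and the change was -2.85 ± 0.26 (adjusted p = 9.11e-09). Mecom (ENSMUSG00000027684, chr3:29951296-30548008), which encodes EVI1, was at 26.6, 43.6 and 32.97 against 291, 272, 262 and 213 CPM (-2.92 ± 0.33, adjusted p = 6.92e-07). Prdm16, a relative of Mecom that maintains stem cells, was at 4.10, 14.3 and 5.24 against 81.4, 40.4, 56.95 and 72.9 CPM (-3.02 ± 0.46, adjusted p = 8.1e-05). COMBO 3 was the highest of the COMBO libraries in all 3 genes. The vehicle group held 415 to 506 CPM of Hlf and 261 to 307 CPM of Mecom.

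The ETS factors Erg (-1.27 ± 0.18, adjusted p = 1.04e-05) and Fli1 (-0.85 ± 0.15, adjusted p = 0.000404) fell, as did the homeobox factor Meis1 (-0.76 ± 0.12, adjusted p = 9.77e-05). Meis1 was at 327, 391 and 319.6 CPM in COMBO against 610.5, 635, 544 and 552 CPM in AZA, so it was still abundant. Klf12 was at 0.978, 1.32 and 0.408 against 23.7, 14.4, 4.89 and 19.3 CPM (-4.13 ± 0.53, adjusted p = 2.87e-06). Mllt3, a chromatin reader that sustains stem cells, fell by 1.40 on the log2 scale (SE 0.30, adjusted p = 0.00222), and Mycn by 1.89 (adjusted p = 0.000149). Runx1, needed for blood formation, was at 279.9, 264 and 278 against 305, 313, 336 and 292 CPM and did not pass (adjusted p = 0.635). Myb, the factor of proliferating progenitors, was the 1 rise, at 1641, 1503 and 1158 against 725, 955, 963 and 935 CPM (0.68 ± 0.15, adjusted p = 0.00315). The 20 falls numbered 16 to 19 when any 1 of the 7 libraries was left out and 13 in a fit of the 7 libraries alone.

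Among 29 surface receptors and niche ligands of stem cells 16 fell and 0 rose, with a median of -1.17. Procr, the endothelial protein C receptor that marks dormant stem cells, was at 0.0315, 0.0575 and 0.439 CPM in COMBO and 30.5, 21.5, 13.6 and 19.3 CPM in AZA (-6.77 ± 0.85, adjusted p = 4.15e-06). VFDM V held 33.97 to 40.4 CPM and VFDM IFN 10.4 to 18.97 CPM, all above the COMBO libraries, of which 2 and 3 were under 0.169 CPM. Esam, an adhesion molecule of stem cells, was at 4.32, 2.705 and 5.68 against 67.97, 45.9, 16.6 and 58.4 CPM (-3.46 ± 0.35, adjusted p = 8.76e-08). In neither gene did the groups overlap. Ctnnal1 (-2.35 ± 0.32, adjusted p = 8.82e-06), the guidance receptor Robo4 (-3.18 ± 0.50, adjusted p = 6.63e-05) and the adhesion receptor Adgrg1 (-1.04 ± 0.16, adjusted p = 3.46e-05) fell as well. Angpt1, the ligand of the receptor Tek, was at 333, 344 and 319.6 against 635, 592, 467 and 599 CPM (-0.79 ± 0.16, adjusted p = 0.00108), and Tek fell with it (-1.17 ± 0.22, adjusted p = 0.000431, but 0.0555 in the 7 libraries alone). Fgd5 fell to 0.883, 6.73 and 0.816 from 67.7, 43.5, 40.3 and 38.3 CPM (-4.16 ± 1.08, adjusted p = 0.0181), but not past the test without COMBO 2 or 4 (adjusted p = 0.0822 and 0.0899) or with limma voom (adjusted p = 0.0615).

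The genes of the sorting gate were looked at apart. Kit was at 677, 585 and 515 CPM in COMBO and 593, 665, 602 and 674 CPM in AZA (-0.10 ± 0.17, adjusted p = 0.817), and Slamf1, which encodes CD150, at 87.6, 94.7 and 95.4 against 85.2, 103, 83.8 and 91.6 CPM (0.02 ± 0.22, adjusted p = 0.976). Both ranges overlapped. Ly6a, which encodes Sca1 and is itself an interferon target, was lower at 15.5, 18.01 and 11.6 against 53.7, 53.1, 44.4 and 38.1 CPM (-1.65 ± 0.29, adjusted p = 0.000305). VFDM V held 12.1 to 15.3 CPM and VFDM IFN 47.7 to 63.00 CPM, so COMBO overlapped vehicle and AZA overlapped IFN. Cd48, which the gate excludes, was at 16.8, 14.1 and 22.8 against 4.97, 8.53, 6.08 and 10.97 CPM with no overlap (adjusted p = 0.136). Whether the gate took the same cells in both groups was not tested. Of 16 progenitor genes 2 rose and 1 fell. The lymphoid factor Ikzf1 rose (0.63 ± 0.15, adjusted p = 0.00638), the costimulatory receptor Cd27 fell (-1.58 ± 0.27, adjusted p = 0.000197), and Plac8 rose by 1.07 (adjusted p = 0.0275), a call that ended without AZA 1 or 4 or COMBO 2 or 4 (adjusted p of 0.0502 to 0.109).

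**Figure D3:**
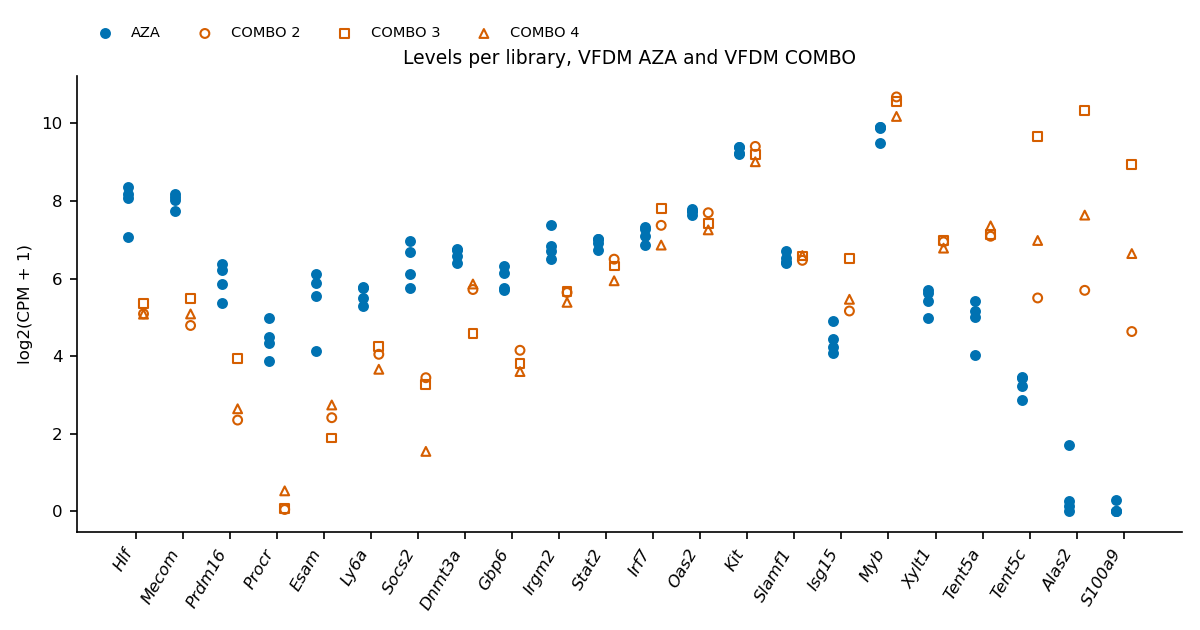
log2(CPM + 1) per library for 22 named genes, with filled blue points for the 4 VFDM AZA libraries and open orange symbols for VFDM COMBO 2 (circle), 3 (square) and 4 (triangle). Stem cell genes at the left lie lower in all COMBO libraries, Irf7, Oas2, Kit and Slamf1 overlap, and Tent5c, Alas2 and S100a9 at the right lie highest in COMBO 3.

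Targets of JAK2 and STAT5 signalling fell for 5 of 21 members and rose for 0, with a median of -0.09, and the count was 5 whichever of the 7 libraries was left out. Pim1, a survival kinase, was at 64.7, 74.5 and 66.1 CPM in COMBO against 160.1, 161, 150.5 and 148 CPM in AZA (-1.18 ± 0.20, adjusted p = 0.000149). Socs2, a feedback inhibitor, was at 9.87, 8.69 and 1.91 against 125, 102, 67.9 and 53.01 CPM (-3.68 ± 0.77, adjusted p = 0.00334). Ccnd1, a cyclin of G1, fell by 1.34 on the log2 scale (adjusted p = 0.0023), beside Cish and Pim2 (-2.58 ± 0.67, adjusted p = 0.0134). With limma voom Socs2 and Ccnd1 did not pass (adjusted p = 0.0652 and 0.122), nor did Pim2 in the 7 libraries alone (adjusted p = 0.249). Of 16 regulators that hold or release the cell cycle 1 rose and 2 fell. The p57 gene Cdkn1c, a brake of dormant stem cells, was at 0.252, 2.42 and 1.35 against 15.05, 9.42, 7.87 and 6.77 CPM (-2.89 ± 0.76, adjusted p = 0.0147, but 0.0807 and 0.0605 without COMBO 2 or 4 and 0.0681 in the 7 libraries alone). Cdk6, which starts the exit from quiescence, rose from 566, 797, 1088 and 1105 to 1607, 1518 and 1542 CPM (0.81 ± 0.24, adjusted p = 0.0316), but not past the test without AZA 1 or 2 or any of the COMBO libraries (adjusted p of 0.0661 to 0.102). Of 34 DNA replication genes 1 rose, Mcm7 (0.48 ± 0.14, adjusted p = 0.0286), whose call ended without AZA 1 or 2 or COMBO 3 or 4 (adjusted p of 0.0517 to 0.0833). None of 29 mitosis genes passed, with medians of 0.22 and 0.10.

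Among 19 writers, erasers and readers of DNA methylation 2 fell, Dnmt3a and the demethylase Tet1. Tet1 was at 48.3, 58.2 and 55.2 CPM in COMBO against 123, 115, 60.02 and 112 CPM in AZA (-0.93 ± 0.21, adjusted p = 0.00371, but 0.0527 in the 7 libraries alone). Dnmt1, the maintenance enzyme that azacytidine depletes as a protein, was at 590.2, 699 and 734 against 621, 552, 679.7 and 639 CPM (0.11 ± 0.18, adjusted p = 0.797), and Dnmt3b at 64.2, 38.04 and 38.9 against 79.5, 74.7, 44.5 and 82.3 CPM (adjusted p = 0.161). None of 20 retroelement silencing genes, 18 genes of azacytidine uptake and activation, 50 ribosomal protein genes, 32 respiratory chain genes, 13 mitochondrially encoded genes, 26 ribosome biogenesis genes or 16 BCL2 family genes passed. In the TGF-beta list 2 of 20 fell, with Ltbp3, which anchors latent TGF-beta, at 19.5, 11.8 and 19.6 against 91.8, 73.6, 65.8 and 69.2 CPM (-2.14 ± 0.25, adjusted p = 5.86e-07).

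Red cell genes were higher in COMBO. Of 26 genes for globins, haem synthesis and the red cell membrane 12 rose and 0 fell, with a median of 1.60. In 16 every COMBO library lay above every AZA library, beside 5.77% of all rows. Alas2, the first enzyme of haem synthesis in red cells, was at 50.8, 1279 and 198 CPM in COMBO and 0.195, 0.105, 0 and 2.27 CPM in AZA (adjusted p = 0.000617). The beta globin gene Hbb-bs was at 319.8, 6143 and 947 against 6.37, 1.47, 12.5 and 10.1 CPM (8.33 ± 1.69, adjusted p = 0.00264), a value uncertain beside its near copy Hbb-bt. Slc25a37, the mitochondrial iron importer, was at 74.2, 377 and 94.4 against 42.2, 61.6, 56.3 and 65.4 CPM (1.69 ± 0.30, adjusted p = 0.000391), and Fech, which inserts the iron, at 81.9, 376 and 141 against 55.3, 63.7, 97.9 and 67.9 CPM (1.49 ± 0.27, adjusted p = 0.000372). COMBO 3 was the highest library in each of these 4 genes. Without it 6 of the 26 rose, and Slc25a37 and Fech no longer passed (adjusted p = 0.0858 and 0.0589). A fit of the 7 libraries alone gave 4, and there Alas2, Hbb-bs, Slc25a37 and Fech did not pass (adjusted p = 0.0682, 0.0541, 0.181 and 0.154).

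The erythroid transcription factors and receptors rose for 3 of 16 members, with a median of 1.29, and for 0 to 2 when any 1 of the 7 libraries was left out. Gata1, the master factor of red cells and platelets, was at 108, 89.7 and 69.7 CPM in COMBO against 22.3, 36.7, 63.7 and 28.2 CPM in AZA (1.24 ± 0.35, adjusted p = 0.0225), a call that ended without AZA 1 or 4 or COMBO 2 or 3 (adjusted p of 0.0561 to 0.0833). The factor Klf1 was at 93.5, 65.9 and 80.2 against 6.47, 24.1, 37.9 and 27.1 CPM (1.74 ± 0.89, adjusted p = 0.249) and the erythropoietin receptor gene Epor at 23.1, 31.7 and 22.2 against 9.07, 10.6, 16.2 and 7.34 CPM (adjusted p = 0.346). In all 3 genes every COMBO library was above every AZA library, and in none was COMBO 3 alone high. Car1, the carbonic anhydrase of early erythroid cells, was at 270.1, 248 and 195 against 4.97, 29.1, 65.5 and 64.4 CPM (2.54 ± 1.10, adjusted p = 0.164). Limma voom called 9 of the 16 higher, and Klf1 and Car1 passed there (adjusted p = 0.0128 and 0.0013). Klf1 also passed without libraries under 20000 detected rows (adjusted p = 0.0251). In VF COMBO against VF AZA 8 of the 16 rose with a median of 1.57, and in VFDM IFN against VFDM V 1 rose with a median of 1.71.

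Genes of neutrophils, which the gate should exclude, rose for 12 of 18 members, 10 without COMBO 3 and 7 with limma voom. S100a9, a calcium-binding alarmin, was at 23.8, 490.03 and 98.9 CPM in COMBO and 0.228, 0, 0 and 0 CPM in AZA (adjusted p = 0.000381). The granule genes Camp (4.10, 59.7 and 15.5 CPM, adjusted p = 0.000737), Mmp8 (4.07, 60.8 and 14.7 CPM, adjusted p = 0.000157) and Ngp (16.7, 386 and 108 CPM, adjusted p = 0.00126) followed the same order of libraries. In AZA, Camp and Mmp8 had no read and Ngp stood at 0 to 0.421 CPM. The summed level of the list was 745.8 to 1959 CPM in COMBO and 19.2 to 67.5 CPM in AZA. The primary granule genes Mpo (662, 66.6 and 213 against 7.54, 42.2, 0 and 0 CPM, adjusted p = 0.148) and Elane (53.1, 13.7 and 21.7 against 0.0325, 2.58, 0 and 0.114 CPM, adjusted p = 0.0972) were instead highest in COMBO 2, and Elane passed without AZA 2 (adjusted p = 0.0346) and with DESeq2 (adjusted p = 0.0234). With limma voom S100a9 and Ngp did not pass (adjusted p = 0.158 and 0.226). Whether this RNA came from cells inside the gate was not tested.

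Markers of further cell types were also counted, beside 1.94% of all rows called higher and 5.87% called lower. Of 21 monocyte genes 2 rose and 1 fell, with Cd14 at 1.61, 9.50 and 4.58 CPM in COMBO and no read in AZA (adjusted p = 0.000483), and their sum was 150.5 to 403 CPM in COMBO and 88.3 to 135 CPM in AZA. Among 12 T and NK cell genes tested Nkg7 rose (1.61 ± 0.41, adjusted p = 0.0106). The sum of the 15 listed was 25.3 to 63.2 CPM against 6.84 to 14.9 CPM, with Cd3e at 0 outside COMBO 3. Among 12 B cell genes tested 1 passed, and the sum of the 13 listed was 13.4 to 107 CPM against 1.78 to 10.4 CPM. Of 26 megakaryocyte genes 1 rose and 4 fell. Mmrn1, an adhesive platelet protein, was at 42.8, 21.1 and 21.1 against 189, 176, 114 and 167 CPM (-2.51 ± 0.34, adjusted p = 1.42e-05), and the nitric oxide receptor subunit Gucy1a1 at 16.7, 18.99 and 9.60 against 88.5, 70.6, 46.1 and 53.3 CPM (-2.10 ± 0.29, adjusted p = 7.79e-06). Vwf, carried by platelet-biased stem cells, was at 161, 151 and 189 against 411, 426, 558 and 385 CPM with no overlap and did not pass (adjusted p = 0.101). It was called lower with DESeq2 and in the 7 libraries alone (adjusted p = 0.0248 and 0.000607).

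**Figure D4:**
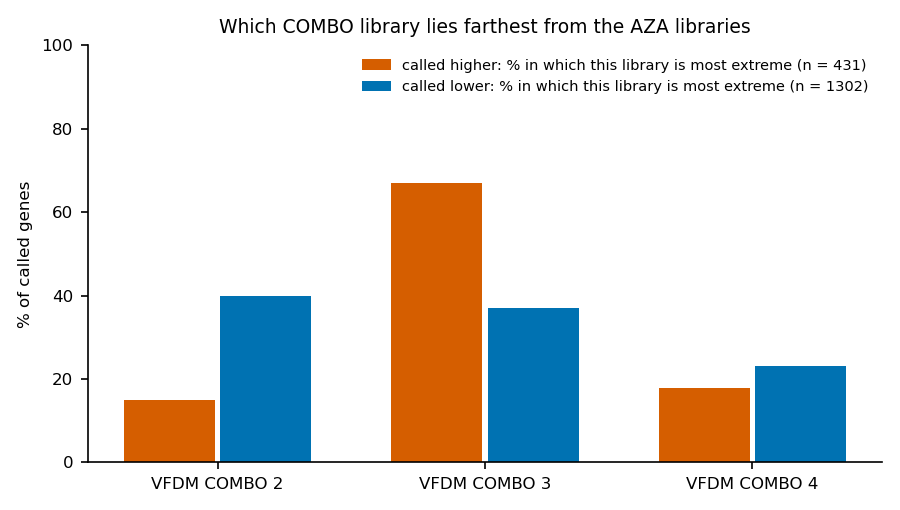
Share of the 431 rises (orange) and 1302 falls (blue), in %, in which each COMBO library lay farthest from the AZA libraries. COMBO 3 was the highest in 67.1% of rises, whereas the lowest library among falls was COMBO 2 in 39.9%, COMBO 3 in 36.9% and COMBO 4 in 23.2%.

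Outside the lists, the smallest p among falls belonged to genes with little left in COMBO. Cadps2 (ENSMUSG00000017978, chr6:23262773-23839421), a factor of vesicle release, was at 3.12, 4.72 and 2.42 CPM in COMBO and 49.9, 46.4, 33.7 and 47.00 CPM in AZA (-3.71 ± 0.31, adjusted p = 2.71e-09). The endosomal adaptor Appl2 was at 3.03, 0.921 and 4.298 against 64.9, 50.6, 32.4 and 44.5 CPM (-4.09 ± 0.39, adjusted p = 2.55e-08), and Dock1, which activates Rac, at 24.5, 18.99 and 19.3 against 188, 142, 139 and 152 CPM (-2.89 ± 0.28, adjusted p = 6.04e-08). The others were Zfp532 (-3.95 ± 0.35), Tfec (-3.72 ± 0.38), Zfp608 (-2.25 ± 0.23), Col16a1 (-3.52 ± 0.36), Shroom4 (-2.74 ± 0.29), Cdk18 (-5.45 ± 0.58) and Scarf1 (-2.59 ± 0.28), with adjusted p-values between 9.11e-09 and 1.58e-07. These 10 genes were picked by small p among falls without overlap between the groups, so their separation was set by the choice. Each call held when any 1 of the 7 libraries was left out, but genes picked by small p in the same libraries favour this.

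The rises with the smallest p were of 2 kinds. They too were picked without overlap between the groups, so their separation was set by the choice. Tent5c, a cytoplasmic poly(A) polymerase, was at 44.2, 809 and 125 CPM in COMBO and 6.34, 9.95, 9.85 and 8.36 CPM in AZA (5.24 ± 0.65, adjusted p = 7.4e-06). Bpgm, which makes the red cell regulator of oxygen release, was at 35.1, 472 and 99.4 against 26.5, 20.5, 18.8 and 19.5 CPM (3.24 ± 0.50, adjusted p = 8.79e-05), and the ubiquitin ligase Mkrn1 at 102, 544 and 155 against 69.3, 68.2, 82.5 and 70.8 CPM (1.87 ± 0.30, adjusted p = 8.88e-05). In these COMBO 3 was far above the other libraries, as it was in Slfn4 (0.82, 64.9 and 10.3 CPM). In a fit of the 7 libraries alone Tent5c, Bpgm and Mkrn1 did not pass (adjusted p = 0.0737, 0.127 and 0.137), and with limma voom Slfn4 did not (adjusted p = 0.105). The other kind was even across the COMBO libraries. Xylt1, which starts proteoglycan chains, was at 122, 126 and 109 against 30.7, 41.8, 51.4 and 48.7 CPM (1.46 ± 0.22, adjusted p = 3.33e-05). Tent5a was at 135, 140.1 and 163 against 15.4, 34.6, 31.4 and 41.96 CPM (2.24 ± 0.36, adjusted p = 7.75e-05), and the helicase Blm, which resolves recombination intermediates, at 133, 183 and 134 against 72.4, 73.00, 79.6 and 60.5 CPM (1.07 ± 0.17, adjusted p = 8.1e-05). Galnt1 (1.01 ± 0.17), S100a10 (1.12 ± 0.19) and Mns1 (1.47 ± 0.27) were likewise even, with adjusted p-values from 0.000118 to 0.000404.

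The same drug contrast with Dnmt3a intact asked whether the change depended on genotype, and the 2 contrasts share no library. VF COMBO against VF AZA called 411 rows (1.85%), of which 235 rose (1.06%) and 176 fell (0.794%). Interferon-stimulated genes rose there for 40 of 51 members with a median of 1.25, beside -0.03 for all rows. The test of the difference between genotypes called 371 rows (1.67%), 85 positive (0.383%) and 286 negative (1.29%), and 32 of the 51 members were among the negative. Irf7 went from 3.34 to 16.6 CPM in VF AZA to 108 to 164 in VF COMBO (3.50 ± 0.32, adjusted p = 2.35e-08), and its difference of changes was -3.24 ± 0.44 (adjusted p = 7.77e-05). The terms of Ifi44 (-2.67 ± 0.28), Zbp1 (-2.71 ± 0.31), Usp18 (-3.14 ± 0.37), Ddx58 (-1.71 ± 0.20) and Oasl2 (-2.11 ± 0.26) had adjusted p-values of 8.28e-07 to 1.26e-05. Usp18 stood at 71.1 ± 15.8 CPM (mean ± SD, n = 3) in VFDM COMBO and 79.9 ± 9.60 (n = 4) in VF COMBO. In the AZA groups it stood at 55.4 ± 9.28 and 7.04 ± 3.05 CPM (n = 4 each).

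Fewer stem cell genes passed with Dnmt3a intact, where 3 of the 30 factors fell and 0 rose, and 2 of the 29 surface genes fell and 2 rose. Of the 1302 falls 103 (7.91%) also fell in VF COMBO against VF AZA, which is 58.5% of the 176 falls there, and the 1302 had a median change of -0.57 in that contrast. Hlf went from 308 ± 69.1 CPM in VF AZA to 134 ± 46.2 in VF COMBO (-1.21 ± 0.22, adjusted p = 0.00107), and the difference of changes was -1.64 ± 0.32 (adjusted p = 0.00315). Mecom had a difference of -1.87 ± 0.40 (adjusted p = 0.0116), Procr of -5.44 ± 0.96 (adjusted p = 0.00168) and Cadps2 of -3.21 ± 0.37 (adjusted p = 3.5e-06). Of the 30 stem cell factors 6 had a negative term and 0 a positive one, and of the 29 surface genes likewise 6 and 0. For Ly6a the 2 contrasts went opposite ways, 1.15 ± 0.26 with Dnmt3a intact and -1.65 ± 0.29 with it deleted (difference -2.81 ± 0.39, adjusted p = 7.77e-05). Among the positive terms Tent5c (4.94 ± 0.82, adjusted p = 0.00128) led, and those of Bpgm and Slc25a37 (adjusted p = 0.0135 and 0.018) ended without COMBO 3 (adjusted p = 0.135 and 0.219). S100a9 passed too (adjusted p = 0.0139), but not without VF AZA 4 (adjusted p = 0.0544) or with limma voom (0.801). Without libraries under 20000 detected rows, which kept only VF COMBO 4 of its group, its term was 6.72 beside 10.44. Limma voom also ended the terms of Tent5c, Procr, Bpgm and Slc25a37 (adjusted p = 0.373, 0.0664, 0.358 and 0.276). In a fit of the 15 libraries of the 4 groups alone the difference was called for 50 rows, all negative. These included 0 of the stem cell factors. Hlf, Mecom, Procr, Tent5c, S100a9, Bpgm and Slc25a37 did not pass there (adjusted p = 0.139, 0.297, 0.0878, 0.122, 0.225, 0.404 and 0.378). Of the 26 globin, haem and membrane genes 5 rose with Dnmt3a intact and 3 had a positive term. Among 18 neutrophil genes 0 rose with Dnmt3a intact and 8 had a positive term, beside 0.383% of all rows. None of these positive terms passed in the fit of the 4 groups alone.

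**Figure D5:**
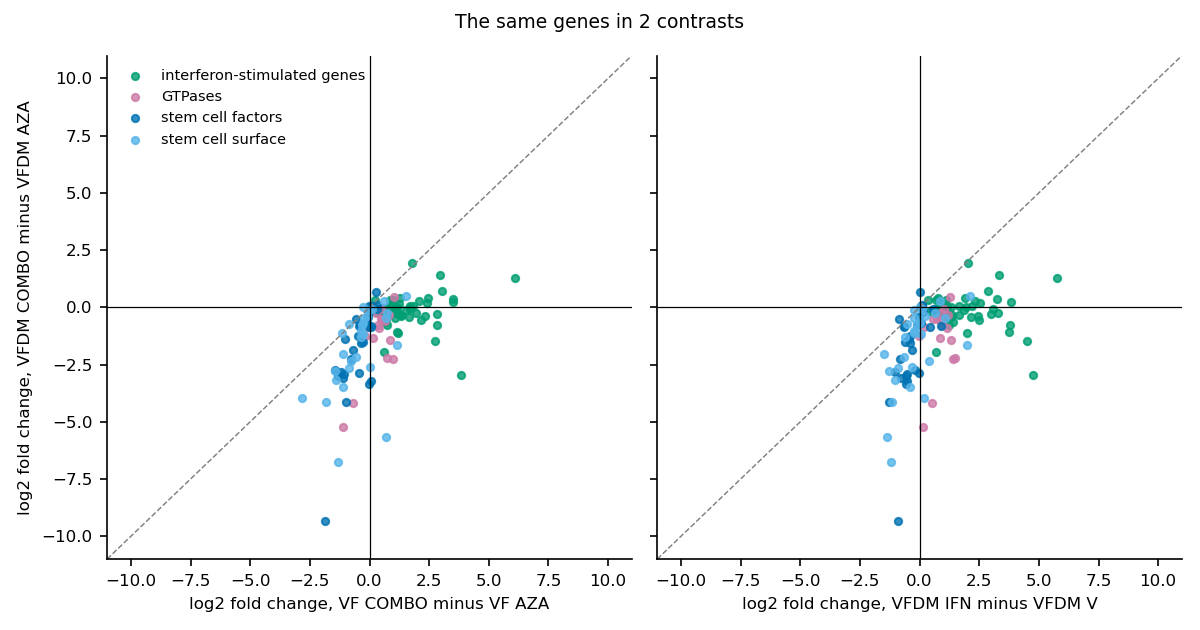
log2 fold change of VFDM COMBO minus VFDM AZA (vertical) against VF COMBO minus VF AZA (left) or VFDM IFN minus VFDM V (right) for members of 4 lists, 1 point per gene, with a dashed line of equal change. Interferon-stimulated genes spread to the right near 0 on the vertical axis, with medians of 1.25 and 1.39 across and -0.12 up, and most stem cell genes lie below the line.

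The change that interferon made without azacytidine in the same genotype gave the second reference, again with no shared library. The libraries labelled VFDM IFN against VFDM V called 214 rows (0.965%), 203 rises (0.916%) and 11 falls (0.0496%), with 47 of 51 interferon-stimulated genes up and a median of 1.39, beside -0.01 for all rows. The difference of the changes was called for 451 rows (2.03%), 37 positive (0.167%) and 414 negative (1.87%), and for 380 without the library labelled VFDM IFN 3, whose Dnmt3a level of 162 CPM goes against its label. It was called for 297 without VFDM V 4 and for 299 without VFDM V 2 or VFDM IFN 1. Interferon-stimulated genes made up 42 of the negative terms, with 0 of the list positive, and GTPases 14 of 17. Oas2 had the term -3.55 ± 0.32 (adjusted p = 2.36e-08), Ifi44 -3.01 ± 0.28 and Slfn5 -3.11 ± 0.36 (adjusted p = 1.42e-06). Stem cell factors had 12 negative and 0 positive terms of 30, and with interferon without azacytidine 1 rose and 1 fell, while 3 of the 29 surface genes rose and 0 fell. Hlf fell by 1.02 on the log2 scale with interferon without azacytidine (adjusted p = 0.00768) and by 2.85 with it (difference -1.83 ± 0.32, adjusted p = 0.000594). Mecom did not pass without azacytidine (-0.53 ± 0.27, adjusted p = 0.867), and its difference did (-2.39 ± 0.41, adjusted p = 0.000604). Procr (-5.56 ± 0.96, adjusted p = 0.000722) and Ly6a (-3.64 ± 0.40, adjusted p = 7.23e-07) also had negative terms. The positive terms with the smallest p were of Tent5c, Bpgm and Ube2o (4.88 ± 0.82, 3.27 ± 0.66 and 3.23 ± 0.65, adjusted p = 0.000735, 0.00503 and 0.00504), and that of Bpgm ended without COMBO 3 (adjusted p = 0.0524), that of Tent5c with limma voom (0.0696) and that of Ube2o in the groups compared alone (0.0863). Neutrophil genes had 0 terms past the test in either direction, and 8 of the 18 rose with interferon without azacytidine, S100a9 reaching 6.32 to 117 CPM in VFDM IFN.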

How the data were processed

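RNA-seq had been done on sorted mouse bone marrow stem cells. The authors deposited 1 table of raw read counts per gene for the 31 libraries. Per the submitters' processing notes, the tools were STAR 2.7.10a, featureCounts, FastQC 0.11.5 and R 4.3.0, with mm10. The strand setting, annotation and treatment of multiply matching reads were not given in the sources used here. Symbols and coordinates were joined from GENCODE vM21 (mm10), which matched 55227 of 55492 rows. Samples were grouped by their labels.

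Counts were tested with edgeR 4.0.16 (R 4.3.3, limma 3.58.1), quasi-likelihood, with 1 mean per group over all 31 libraries, TMM scaling, filterByExpr (at least 10 reads, 15 in total) and Benjamini-Hochberg adjustment over 22172 rows. The SE is the absolute log2 change divided by the square root of F. The genotype difference and the difference between interferon with and without azacytidine were contrasts of the same fit. DESeq2 1.42.0, limma voom, other scalings, no filter, the compared groups alone, a replicate block and leaving out each library were alternatives. The code was tested on simulated data. Adjusted p-values not otherwise credited are from edgeR.

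Named genes were drawn from up to 12 rises and 12 falls by p (mean log2 CPM of at least 2, no clone symbols, no overlap between groups), up to 6 terms in each direction of the differences, the 5 members with the smallest p and the key members of 39 gene lists (846 entries, 4 not found), and Dnmt genes, Jak2 and transgenes. Fli1, Gbp5, Myb, Mycn, Tek and Myh4 fall outside this rule and were chosen after their values were seen, and some genes of the rule are not reported here. The comparison, the members and the lists were chosen with earlier results of these data known, so they are no independent evidence. Promoter sequences are from RefSeq (GRCm38.p6). A level of 3 counts is 0.169 CPM in the smallest library, which covers counting error only.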

Additional observations from a re-analysis of the deposited data

Results flagged for a closer look

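Among the 4 AZA libraries, several values stood far from the other 3. Such a gap arises by chance in about 1 of 20 groups, 7 of 135 named genes and 2 of 8 lists showed it, and groups of 3 were not examined. AZA 2 had the highest mean log2(CPM + 1) of interferon-stimulated genes at 6.52, and AZA 1 that of stem cell factors at 6.54. AZA 1 was lowest for Myb at 725 CPM and highest for S100a9 at 0.228 CPM and for the monocyte receptor Csf1r at 1.04 CPM. AZA 2 was highest for Elane at 2.58 CPM and lowest for Ccnd1 at 23.9 CPM. AZA 4 was highest for Alas2 at 2.27 CPM. Ube2o, a ubiquitin ligase of reticulocytes, was highest in AZA 3 at 64.7 CPM.

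The 2 tests of a difference between groups were also picked out. The change from AZA to COMBO differed between genotypes for 371 rows, and the change with interferon differed between libraries with and without azacytidine for 451 rows. In both, the interferon-stimulated level of the VFDM AZA libraries enters the difference directly.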

How the results depend on the processing

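The 1733 calls became 2892 with DESeq2, 757 in a fit of the 7 libraries alone, 2969 without libraries under 20000 detected rows, and 1039 to 1565 without 1 of the 7 libraries, lowest without COMBO 3. The genotype difference, called for 371, gave 1046 with DESeq2, 107 with limma voom, 50 in a fit of the 4 groups alone and 266 to 512 without 1 library. The difference between interferon with and without azacytidine, called for 451, gave 897 with DESeq2, 730 in a fit of its groups alone, 1353 without libraries under 20000 detected rows and 297 to 443 without 1 library. The cause was not tested. Restriction to protein-coding genes, chosen after seeing the data, gave 1602 calls for the first comparison.

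With the replicate number as a block the calls were 1371, 231 and 350. Same-numbered libraries did not deviate together (correlations of -0.005, -0.031 and -0.005, beside -0.037 to 0.032 for libraries of unlike number). No pairing by number was seen, and a batch shared by number was not tested.

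Of the values of named genes under the alternatives, 2822 kept direction and side of the threshold, 187 lost the call, 30 gained it and 4 changed sign, all in genes near 0. These were Irf7 (-0.011 without libraries under 20000 detected rows), Kit (-0.17 to 0.031 without 1 library, highest without COMBO 4) and Slamf1 (-0.040 with voom, -0.0066 without libraries under 20000 detected rows). Depth limits genes under 0.169 CPM.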

Other observations

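The calls of other lists in COMBO against AZA stand beside 1.94% of all rows called higher and 5.87% called lower. Imprinted genes fell for 3 of 25 members with a median of -0.52, p53 targets fell for 2 of 23, and glycolysis genes rose for 1 and fell for 2 of 18. Ribosome biogenesis (26 genes) and ribosomal proteins (50 genes) had medians of 0.29 and 0.11 with none past the test, and 6 members of each had every COMBO library above every AZA library, beside 5.77% of all rows. Of 9 stroma genes 1 fell, as did 1 of 19 immediate early genes, with 0 rises in either list. None of 7 MHC class II genes, 8 mast cell and basophil genes, 15 stress response genes, 3 germline genes or 5 nuclear RNA genes passed.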
